A study of Rattus norvegicus with 24 samples.

Results

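The genes described here encode scaffold proteins of the postsynaptic density, with the kinase subunit Camk2a that is anchored among them, in rat brain after MK-801. The 10 genes Dlg1, Dlg2, Dlg3, Dlg4, Shank1, Shank2, Shank3, Homer2, Homer3 and Camk2a were chosen by name, and their probes were found in the probe annotation; no measured value enters that rule. They are 10 of 15445 named genes on the array and were measured by 13 of its 41012 probes, with 2 probes each for Dlg4, Shank2 and Camk2a. All 13 probes passed the filter on dim signals, as did 27690 probes in all, and each probe was kept apart. None was saturated on any of the 24 arrays.

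The postsynaptic density is the protein layer under the membrane of an excitatory synapse, facing the site of glutamate release. Dlg proteins bind the tails of NMDA receptors and hold them in place, Shank proteins form a deeper layer that joins the Dlg layer to the actin skeleton, and Homer proteins link Shank to metabotropic glutamate receptors. Camk2a encodes the alpha subunit of calcium/calmodulin-dependent kinase II, which is activated by calcium entering through NMDA receptors and binds to their tails. MK-801 blocks the open channel of the NMDA receptor.

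Male Wistar rats, 10 weeks old, received an injection into the abdomen 40 min before the brain was taken. The control group of 3 rats received saline and the other 6 rats received MK-801, at 0.08 mg per kg (low dose) or 0.16 mg per kg (high dose). The dissected regions were hippocampus, cerebral cortex, amygdala, ventral striatum, hypothalamus and midbrain. RNA of each region at each dose was compared with saline RNA of that region on 2 two-colour arrays with exchanged dyes, which gave 12 dye swaps. The labels tie no array to an animal and do not state whether RNA of several rats was pooled. A dye swap was therefore 1 value, single regions at 1 dose have no replicate, and every n below counts regions of the same 9 rats, so errors and p-values measure the spread between regions and not between rats. The test for a difference between regions is the exception, as it measures against the spread between doses within a region, again not between rats.

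Depending on the array, 55.2% to 78.5% of all probes had a signal well above background. In the saline RNA, the regions were checked against marker genes. All 8 measured markers of striatal neurons were highest in the ventral striatum and all 6 of midbrain monoamine neurons in the midbrain. Projection neurons of cortex and hippocampus had 5 measured markers, with 4 highest in the hippocampus and 1 in the cerebral cortex. The hypothalamus led in 3 of 8 hypothalamic markers and the amygdala in 2 of 3 amygdala markers, so these dissections were set apart less clearly. Of 3 measured markers of the bordering thalamus, Prkcd and Lef1 led in the hypothalamus, 3.17 and 2.26 log2 units above the next region, and Tnnt1 led in the ventral striatum.

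The probes are 60 bases long and decide which transcript a value stands for. The probes for Dlg2, Dlg3 and Dlg4 are shown because they lie in a stretch where these related genes resemble each other. Capitals in the Dlg2 and Dlg3 lines mark bases equal to the Dlg4 probe at the best ungapped overlap, and capitals in the Dlg4 line mark bases shared by all 3.
Dlg2 A_44_P193904: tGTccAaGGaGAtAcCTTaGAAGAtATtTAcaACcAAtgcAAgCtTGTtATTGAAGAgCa
Dlg3 A_44_P440633: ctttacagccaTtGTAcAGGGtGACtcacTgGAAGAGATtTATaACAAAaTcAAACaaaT
Dlg4 A_44_P238312: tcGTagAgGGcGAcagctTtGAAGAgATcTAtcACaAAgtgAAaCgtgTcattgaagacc
Of the Dlg2 probe's bases, 39 of the 59 that overlap equalled the Dlg4 probe, and of the Dlg3 probe's, 34 of 49. Dlg1, whose probe lies elsewhere in its transcript, reached at most 22 matching bases with the probe of another of the genes.

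On the rn3 build used in the files, the Dlg2 probe lies at chr1:149352770-149352829 on the plus strand, the Dlg3 probe at chrX:88899969-88901029 on the plus strand and the Dlg4 probe shown above at chr10:56903308-56903367 on the plus strand. The second Dlg4 probe, A_44_P238314, lies 292 bases upstream at chr10:56902480-56903016 and was printed on 10 spots of each array. The Dlg1 probe lies at chr11:70807276-70808200 on the minus strand. A probe of 60 bases whose interval is longer than that, as for Dlg1, Dlg3 and A_44_P238314, is interrupted in the genome.

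The Camk2a probes cover different parts of the gene. The upstream probe, A_44_P101625, spans chr18:56976633-56990498 on the plus strand and is interrupted in the genome in the same way. Its sequence is shown because the Camk2a probes gave different results.
Camk2a A_44_P101625: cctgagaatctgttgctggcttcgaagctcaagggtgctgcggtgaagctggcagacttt
The other probe, A_44_P296812, lies 32554 bases downstream at chr18:57023052-57023111. The file describes its source as the 3′ untranslated region of the alpha subunit, and it was printed on 10 spots. The SD of the log2 ratio between those spots within an array had a median of 0.0565, against 0.0639 for the Dlg4 probe with 10 spots.

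Saline levels showed where each gene was expressed before any drug effect. Levels are log2 intensities in the saline colour after normalization, given as the mean of both dye swaps of a region. They are compared between regions for 1 probe and never between probes. Region, slide and the saline RNA of a region cannot be told apart, so these values are a description with no test. The highest and lowest regions were at least 1 log2 unit apart for 10 of the 13 probes (76.9%), against 30.8% of the 24618 probes with a level in every region. The median distance was 1.77 log2 units, against 0.74 for those probes.

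Camk2a varied most between regions. The upstream probe read 10.90 in the hippocampus, 10.37 in the cerebral cortex, 10.18 in the amygdala, 9.57 in the ventral striatum, 8.68 in the hypothalamus and 7.27 in the midbrain. The 3′ probe read 12.72 in the hippocampus, 12.43 in the cerebral cortex, 11.77 in the ventral striatum, 11.70 in the amygdala, 10.47 in the hypothalamus and 7.77 in the midbrain. Both probes therefore put the hippocampus and cerebral cortex first and the hypothalamus and midbrain last. The hippocampus lay 12.4-fold above the midbrain by the upstream probe and 31-fold above it by the 3′ probe. Values of neighbouring regions from the separate dye swaps did not overlap, apart from ventral striatum and amygdala by the 3′ probe. The midbrain was lowest by both probes, and with median scaling between arrays 1 Camk2a probe had another highest region.

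**Figure D1:**
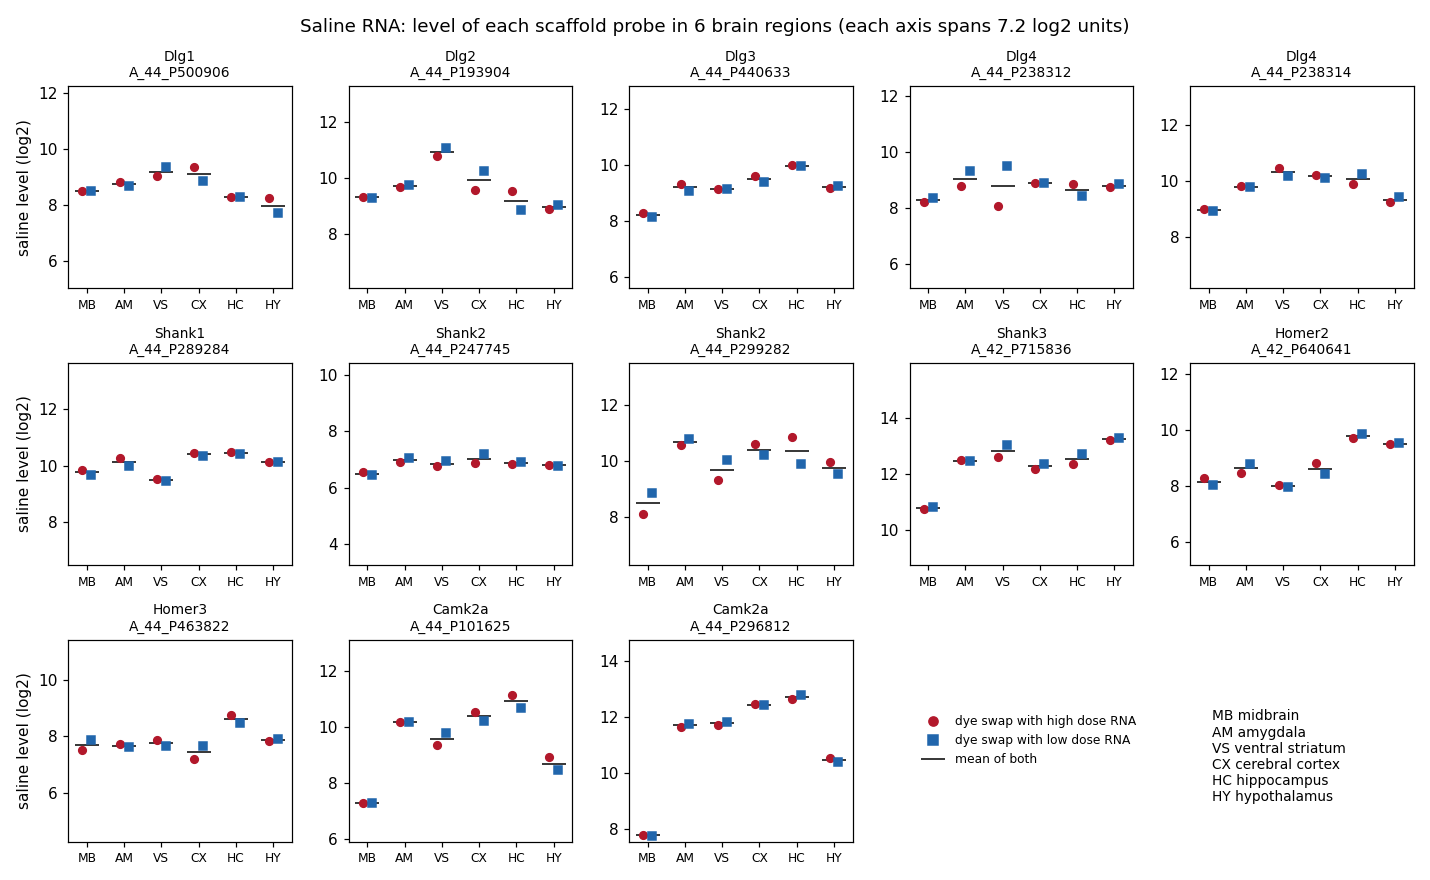
Saline level (log2 intensity, vertical axis) of the 13 probes in 6 brain regions (horizontal axis). Circles are dye swaps with high dose RNA, squares dye swaps with low dose RNA, and bars their mean; every axis has the same length. Camk2a falls from hippocampus to midbrain, Shank3 is highest in the hypothalamus, and the Dlg4 probe A_44_P238312 has circle and square 1.42 apart in the ventral striatum.

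The Dlg genes did not share a regional order. Dlg2, whose protein anchors NMDA receptors, read 10.94 in the ventral striatum and 9.93 in the cerebral cortex. It then read 9.74 in the amygdala, 9.32 in the midbrain, 9.21 in the hippocampus and 8.98 in the hypothalamus. The ventral striatum led by 1.01 log2 units, and its dye swaps did not overlap with those of the cerebral cortex. Below it, dye swaps of cerebral cortex and amygdala overlapped, as did those of midbrain and hippocampus and of hippocampus and hypothalamus. Dlg1, which also serves in epithelial cell contacts, had the same order of regions from 9.20 in the ventral striatum to 7.99 in the hypothalamus. Its first 2 regions, ventral striatum and cerebral cortex (9.13), overlapped between dye swaps.

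Dlg3, another NMDA receptor anchor, read 9.97 in the hippocampus, 9.49 in the cerebral cortex and 9.20 in the hypothalamus. It read 9.19 in the amygdala, 9.14 in the ventral striatum and 8.21 in the midbrain. The hippocampus and the midbrain stood apart at the ends, and neighbours among hypothalamus, amygdala and ventral striatum overlapped. Across the 6 regions the level of Dlg1 correlated with Dlg2 at r = 0.89 and with Dlg3 at r = -0.02. This is a description over 6 points, each from a slide of its own on which all these genes were read.

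Dlg4 encodes the most abundant scaffold of this family in forebrain synapses. The probe on 10 spots read 10.33 in the ventral striatum, 10.18 in the cerebral cortex, 10.08 in the hippocampus, 9.80 in the amygdala, 9.34 in the hypothalamus and 8.97 in the midbrain. Its first 3 regions overlapped in neighbouring pairs, and the amygdala, the hypothalamus and the midbrain followed without overlap. The probe on 1 spot ranged only from 8.30 in the midbrain to 9.04 in the amygdala, and its dye swaps in the ventral striatum gave 8.09 and 9.51. Both Dlg4 probes had the midbrain last, and by the single-spot probe no region above it was separable from its neighbour.

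Among the Shank genes, Shank3 read 13.24 in the hypothalamus, 12.82 in the ventral striatum, 12.51 in the hippocampus, 12.46 in the amygdala, 12.26 in the cerebral cortex and 10.78 in the midbrain. The hypothalamus was 5.5-fold above the midbrain, and its dye swaps (13.19 and 13.28) lay above those of the ventral striatum (12.60 and 13.03). The hypothalamus also led in the thalamic markers Prkcd and Lef1, and the part of bordering thalamus in the Shank3 level was not tested. Shank1, a synaptic scaffold found mainly in brain, varied less. It read 10.45 in the hippocampus, 10.40 in the cerebral cortex, 10.12 in amygdala and hypothalamus, 9.76 in the midbrain and 9.49 in the ventral striatum. The ventral striatum was thus the lowest region for Shank1 and the next to highest for Shank3, while the highest region of Shank1 was another with median scaling.

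Shank2 probe A_44_P299282 read 10.67 in the amygdala, 10.40 in the cerebral cortex, 10.36 in the hippocampus, 9.74 in the hypothalamus, 9.66 in the ventral striatum and 8.48 in the midbrain. Dye swaps overlapped between all neighbouring regions except the last pair, so among neighbours only the midbrain was separable. Both dye swaps of the amygdala and of the cerebral cortex lay above those of the hypothalamus and the ventral striatum. The other Shank2 probe, A_44_P247745, lies 2923 bases upstream and was dim, between 6.50 and 7.03. It was well above background on 12 of the 24 arrays, on all 4 of the cerebral cortex and on none of the midbrain, so its regional fold is not given.

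Homer2 and Homer3 encode linkers that bind Shank proteins and metabotropic glutamate receptors. Homer2 read 9.78 in the hippocampus, 9.5 in the hypothalamus, 8.63 in the amygdala, 8.61 in the cerebral cortex, 8.15 in the midbrain and 7.99 in the ventral striatum. Homer3 read 8.61 in the hippocampus, 7.88 in the hypothalamus, 7.77 in the ventral striatum, 7.69 in the midbrain, 7.67 in the amygdala and 7.44 in the cerebral cortex. Both were highest in the hippocampus without overlap with the next region, although Homer2 had another highest region with median scaling. For Homer3 every pair of neighbours below the hippocampus overlapped between dye swaps.

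For each gene with a regional span of at least 1 log2 unit, the genes with the most similar saline pattern were found among 3535 genes, by Pearson's r over the 6 regions. With 6 points many genes reach a high r, between 4 and 33 over 0.95 for the probes listed here, so the names are a description. Genes near to Camk2a included Enc1 (r = 0.990) and Adsl (r = 0.987). Dlg4 was nearest to Cyfip2 (r = 0.987), Camkk2 (r = 0.986) and Kcnj4 (r = 0.985). Dlg3 was nearest to Slc4a10 (r = 0.997), Dlg2 to Neto2 (r = 0.991), Dlg1 to Spred1 (r = 0.987) and Homer2 to Hmmr (r = 0.988). The nearest genes were Orai2 for Homer3 (r = 0.978), R3hdm1 for Shank2 (r = 0.971) and Itm2c for Shank3 (r = 0.968).

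After MK-801 all 13 scaffold probes averaged within 0.10 log2 units of saline over the regions, at each dose and over both. Each value is the log2 of the MK-801 signal over the saline signal, given as mean ± SD over 6 regions and tested against 0 with limma and adjusted by Benjamini-Hochberg over all probes. Over both doses none of the 13 probes passed an adjusted p of 0.05, where 2.45% of the 27267 probes tested did. At an unadjusted p under 0.05 there were 2 of 13, against 13.5% of all probes. The means ran from -0.07 to 0.01. Of the 13 probes 11 had a mean below 0, but their median was -0.020, against 0.000 for all probes, and the median SD between regions was 0.0565 against 0.0568. The 95% confidence intervals over the 6 regions lay within -0.19 and 0.07, and fewer cells of a type and less RNA per cell cannot be told apart in such tissue samples.

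At the high dose none of the 13 probes passed the threshold, against 2.01% of all probes, and 2 passed at an unadjusted p under 0.05, against 12%. At the low dose none passed either, against 2.42%, and 1 passed unadjusted, against 13%. The medians of the 13 means were -0.040 at the high dose and -0.013 at the low dose. The ratios of both doses draw on the same group of saline rats.

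**Figure D2:**
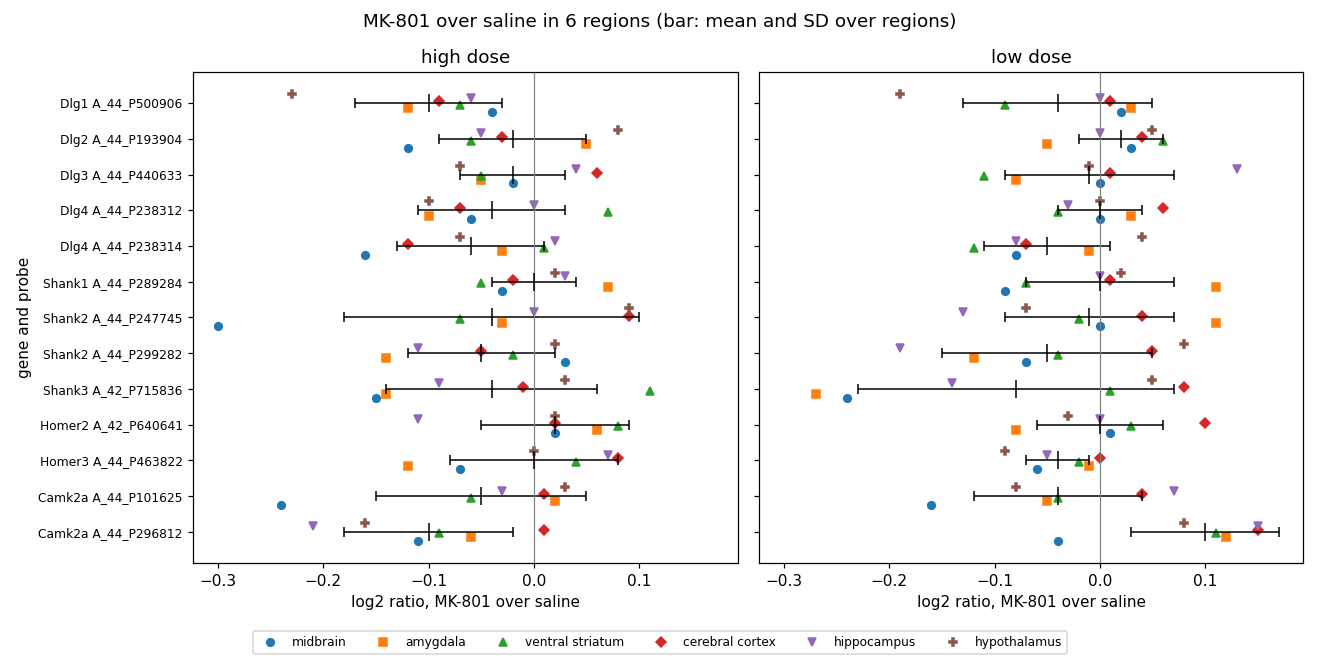
Log2 ratio of MK-801 to saline (horizontal axis) for the 13 probes (vertical axis) at the high dose (left) and the low dose (right). Each symbol is 1 region (mean of a dye swap), and the black bar is the mean with the SD over 6 regions. The means lie within 0.10 of 0, and the Camk2a probe A_44_P296812 lies mostly left of 0 at the high dose and right of it at the low dose.

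Of the Dlg genes, Dlg1 was lower than saline in all 6 regions over both doses. Its values were -0.21 in the hypothalamus, -0.08 in the ventral striatum, -0.04 in amygdala and cerebral cortex, -0.03 in the hippocampus and -0.01 in the midbrain. The hypothalamus thus lay well below the other 5 regions, at -0.23 with the high dose and -0.19 with the low dose. The mean was -0.07 ± 0.07 (n = 6, adjusted p = 0.269). At the high dose it was -0.10 ± 0.07 (n = 6, adjusted p = 0.137), lower in 6 of 6 regions, where 7.98% of all probes with 6 values had a common sign, and -0.07 without the hypothalamus (adjusted p = 0.297). At the low dose 4 regions lay at or above 0, and the mean was -0.04 ± 0.09 (n = 6, adjusted p = 0.694).

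Dlg4 by the probe on 10 spots was also below saline in every region over both doses. It read -0.12 in the midbrain, -0.10 in the cerebral cortex, -0.05 in the ventral striatum, -0.03 in the hippocampus and -0.02 in amygdala and hypothalamus. The mean was -0.06 ± 0.04 (n = 6, adjusted p = 0.262). The other Dlg4 probe gave -0.02 ± 0.02 (n = 6, adjusted p = 0.717) and was lower in 5 of 6 regions. The probes differed by -0.04 ± 0.05 (n = 6, 2-sided exact sign-flip permutation test, p = 0.188, adjusted 0.375 over 6 such tests). A common sign in all 6 regions, as Dlg1 and this Dlg4 probe showed, was seen in 9.01% of the probes with 6 values. Dlg2 averaged 0.00 ± 0.04 and Dlg3 -0.01 ± 0.06 over both doses (n = 6 each), with regions on both sides of 0.

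Among the Shank genes, Shank1 stayed between -0.06 in midbrain and ventral striatum and 0.09 in the amygdala over both doses, with a mean of 0.00 ± 0.06 (n = 6). Shank2 averaged -0.05 ± 0.08 by the brighter probe (n = 6, adjusted p = 0.514) and -0.02 ± 0.08 by the dim one (n = 6, adjusted p = 0.78). The dim probe read -0.30 in the midbrain at the high dose, a region where it was not well above background on any array.

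Shank3 split the regions. Over both doses it read -0.20 in the amygdala, -0.19 in the midbrain and -0.11 in the hippocampus. It read 0.06 in the ventral striatum and 0.04 in cerebral cortex and hypothalamus. In the first 3 regions both doses lay below 0, between -0.27 and -0.09, and in the other 3 they lay between -0.01 and 0.11. The mean over regions was -0.06 ± 0.12 (n = 6, adjusted p = 0.537).

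The difference between regions was tested with an F test in limma on the 12 dye swaps, with dose as a term. Both doses of a region were set against saline RNA of that region from the same group of rats. Their values are therefore not independent, and the p-values of this test, here and for the lists below, can be too small. None of the 13 probes passed an adjusted p of 0.05, against 1.19% of the 24618 probes tested. At an unadjusted p under 0.05 there were 4 (Dlg1, Shank2 A_44_P299282, Shank3 and the upstream Camk2a probe), against 18.7% of all probes. Shank3 was nearest to the threshold (F = 7.78, adjusted p = 0.0716), and it passed with a robust prior that followed the intensity (adjusted p = 0.00894) and among probes well above background on all 24 arrays (adjusted p = 0.0481). It did not pass with the scanner's ratios (adjusted p = 0.214), the series' value table (0.217), no filter on dim probes (0.118) or any 1 region left out (0.0577 to 0.143). Some markers of dissected cell groups also differed between regions in their ratio. Marker probes are counted here out of all that passed the filter on dim signals. Any probe without a value in all 12 dye swaps was not tested and counts as not passing. By this count 5 of 7 for midbrain monoamine neurons, 5 of 9 for the hypothalamus and 4 of 11 for striatal neurons passed. Fewer passed in other lists, with 2 of 5 for projection neurons, 1 of 3 for the thalamic border, 1 of 6 for the amygdala and 0 of 4 for the hippocampus. For neurons in general it was 0 of 10, for oligodendrocytes 1 of 12, for microglia 1 of 10, for astrocytes 0 of 8 and for endothelium 0 of 7. The mean ratio of the monoamine list ran from -0.29 to 0.43 between regions, that of the hippocampus list from -0.10 to 0.08 and that of the amygdala list from -0.07 to 0.01. The part of such shifts in the Shank3 values was not tested.

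**Figure D3:**
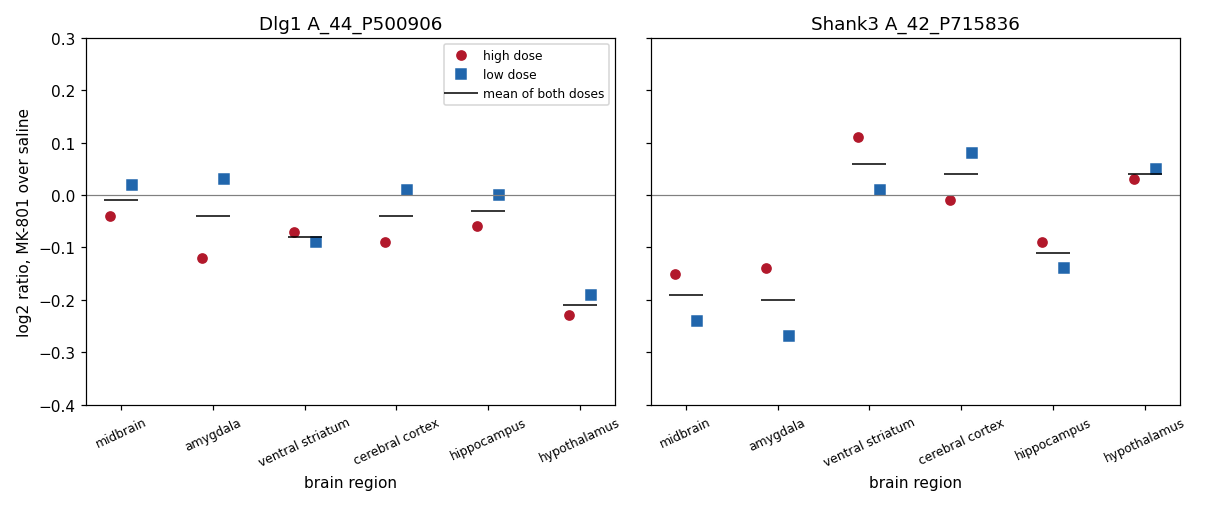
Log2 ratio of MK-801 to saline (vertical axis) for Dlg1 (left) and Shank3 (right) in 6 brain regions (horizontal axis), with 1 dye swap per symbol and bars for the mean of both doses. Dlg1 is lowest in the hypothalamus at both doses (-0.23 and -0.19), and Shank3 lies below 0 at both doses in midbrain, amygdala and hippocampus.

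Homer2 averaged 0.01 ± 0.04 (n = 6, adjusted p = 0.888) and Homer3 -0.02 ± 0.04 (n = 6, adjusted p = 0.753) over both doses. Homer2 was between 0.02 and 0.08 in 5 regions at the high dose and at -0.11 in the hippocampus, the region of its highest saline level. Homer3 was at or below 0 in all 6 regions at the low dose, from -0.09 to 0.00, with a mean of -0.04 ± 0.03 (n = 6, adjusted p = 0.562), where 8.83% of all probes with 6 values had a common sign.

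The 3′ probe of Camk2a was the 1 scaffold probe whose values differed between doses. At the high dose it read -0.21 in the hippocampus, -0.16 in the hypothalamus, -0.11 in the midbrain, -0.09 in the ventral striatum, -0.06 in the amygdala and 0.01 in the cerebral cortex. At the low dose it read 0.15 in hippocampus and cerebral cortex, 0.12 in the amygdala, 0.11 in the ventral striatum, 0.08 in the hypothalamus and -0.04 in the midbrain. In every region the high dose value lay below the low dose value, although the groups overlapped across regions. The means were -0.10 ± 0.08 at the high dose (n = 6, adjusted p = 0.147) and 0.10 ± 0.07 at the low dose (n = 6, adjusted p = 0.15), neither of which passed the threshold.

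The high minus low difference of this probe was -0.20 ± 0.09 (n = 6, adjusted p = 0.0157), lower in 6 of 6 regions. It read -0.36 in the hippocampus, -0.23 in the hypothalamus, -0.20 in the ventral striatum, -0.19 in the amygdala, -0.14 in the cerebral cortex and -0.07 in the midbrain. It was the only 1 of the 13 probes called in this comparison, where 1.44% of the 27267 probes tested were called, and a common sign in all 6 regions was seen in 6.9%. The median difference was -0.006 over the 13 probes and -0.004 over all probes. Both doses were set against saline RNA of the same region, but the labels do not state whether it was the same RNA. The dose groups are different rats, so dose and rats cannot be told apart.

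The call did not hold under every processing. The difference stayed between -0.22 and -0.17, but the adjusted p was 0.0552 with the scanner's own ratios and 0.0564 with the series' value table. It was 0.0635 without the ventral striatum, 0.0688 without the hypothalamus and 0.05, at the threshold and not under it, with single arrays and the array number as a block. Within scan days the mean difference was -0.17 for ventral striatum and cerebral cortex, -0.13 for midbrain and amygdala and -0.30 for hippocampus and hypothalamus.

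The upstream Camk2a probe did not show this difference. At the high dose it read -0.24 in the midbrain and between -0.06 and 0.03 elsewhere, and at the low dose it ran from -0.16 in the midbrain to 0.07 in the hippocampus. Its high minus low difference was -0.01 ± 0.09 (n = 6, adjusted p = 0.96). The 3′ probe minus the upstream probe was -0.19 ± 0.13 in this difference, lower in 5 of 6 regions (2-sided exact sign-flip permutation test, p = 0.0625, adjusted 0.375 over 6 tests, with 0.0312 the smallest p that 6 regions allow). Whether the parts of the gene responded differently was therefore not settled by this test.

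Single arrays show how large the dye effect of the 3′ probe was. With saline in Cy3 the ratio was below 0 on all 6 high dose arrays, from -0.54 in the ventral striatum to -0.31 in the cerebral cortex, and on all 6 low dose arrays, from -0.40 in the midbrain to -0.07 in the hypothalamus. With saline in Cy5 it was above 0 on all 12, from 0.02 to 0.36 at the high dose and from 0.22 to 0.60 at the low dose. In all 12 pairs of arrays with the same region and dye orientation the high dose array read below the low dose array, with the smallest gap in the cerebral cortex with saline in Cy3, at -0.31 and -0.29. The dye effect, the distance of either array from the mean of its swap, had a median of 0.133 over the 13 probes and 0.0868 over all probes, and reached 0.50 for this probe. It cancels in the mean of a swap only as far as it was equal on both arrays.

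**Figure D4:**
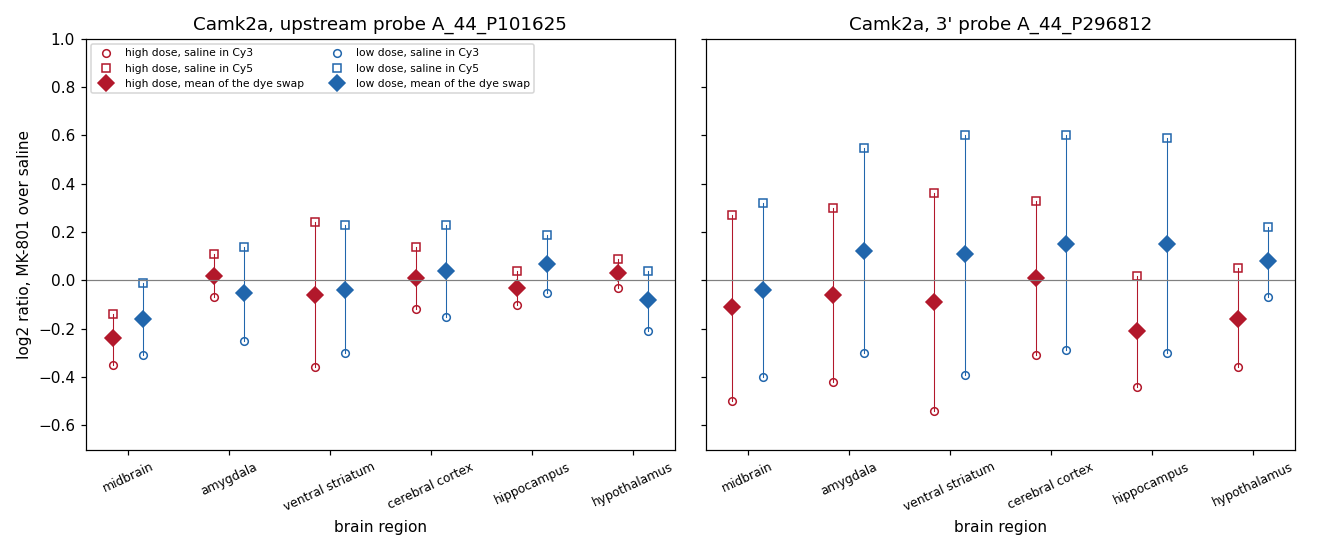
Log2 ratio of MK-801 to saline (vertical axis) for the upstream (left) and the 3′ probe (right) of Camk2a in 6 brain regions (horizontal axis). Open symbols are single arrays, joined by a line within a dye swap, and filled diamonds are the mean. For the 3′ probe the high dose diamond lies below the low dose diamond in all 6 regions, and the open symbols of a swap lie up to 0.50 from their mean.

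Marker lists of cell types were set beside this difference. None of 5 probes for cortical and hippocampal projection neurons, the cells richest in Camk2a, was called between doses, and their mean difference was -0.04, from -0.12 to -0.01 over the regions. None of 10 probes for neurons in general was called either (mean 0.00, from -0.08 to 0.06). Of 10 microglia probes 2 were called, where 1.44% of all probes were, with a list mean of -0.11, from -0.18 to -0.05. No probe of the other lists was called. Their means ran from -0.07 for midbrain monoamine neurons (-0.19 to -0.01 over the regions) to 0.03 for the hippocampus list (-0.19 to 0.22). The part of these shifts in the Camk2a value was not tested.

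Other genes of the postsynaptic density were counted from lists written down with earlier results of these data known. Of 30 scaffold partners, such as the Dlgap family, 27 had a probe that passed the filter on dim signals, and of their 40 probes none was called higher, against 1.28% of all probes, and 1 was called lower, against 1.17%, over both doses. That probe was A_44_P380835 of Homer1, an activity-induced relative of Homer2 and Homer3. It read -0.49 in the cerebral cortex, -0.47 in the ventral striatum, -0.34 in the amygdala, -0.19 in the hippocampus, -0.16 in the hypothalamus and 0.01 in the midbrain, with a mean of -0.27 ± 0.20 (n = 6, adjusted p = 0.0273). At the low dose no partner probe was called higher, against 1.18% of all probes, and this was the 1 called lower, against 1.24% (-0.31 ± 0.18, n = 6, adjusted p = 0.00608). For a difference between regions 2 of 35 partner probes tested were called, against 1.19% of all probes. They were A_44_P380835 of Homer1 (adjusted p = 0.00135) and Baiap2 A_44_P128229 (adjusted p = 0.0419). The other Homer1 probe, A_44_P148865, gave -0.06 ± 0.04 over both doses (n = 6, adjusted p = 0.215). None of the 40 probes was called at the high dose or between doses, where 2.01% and 1.44% of all probes were. Their median over both doses was -0.020, and 7 had an unadjusted p under 0.05, where 13.5% of all probes did.

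All 11 CaMKII subunits and partners were measured. None of their 14 probes was called over both doses, where 2.45% of all probes were. The median was -0.017, and 2 had an unadjusted p under 0.05, where 13.5% of all probes had one. For a difference between regions 1 of 9 probes tested was called, against 1.19% of all probes. It was that of Nrgn, a calmodulin-binding protein of dendrites (adjusted p = 0.04), with -0.31 in the hypothalamus and between -0.09 and 0.05 elsewhere. Of 23 receptors and adhesion partners, which include the NMDA and AMPA receptor subunits, 21 were measured, and none of their 29 probes was called over both doses, at the high dose, at the low dose or between doses, where 2.45%, 2.01%, 2.42% and 1.44% of all probes were. Over both doses their median was -0.013, with 3 at an unadjusted p under 0.05, against 13.5% of all probes.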

How the data were processed

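The authors deposited 1 scanner file per array, made with Agilent Feature Extraction 9.5.3.1 per the submitters' processing notes. Per the file headers, each spot has a mean and a background intensity per colour and a log10 ratio of red to green computed by the scanner software. The deposited series table holds log10 ratios of the processed signals. Both were used as alternatives. Intensities were corrected with normexp (offset 50), normalized by loess within arrays, turned to log2 of MK-801 over saline by the dyes in the labels, and averaged over spots and then over the dye swap, with R 4.3.3, limma 3.58.1 and statmod 1.5.0. Figures used Python 3.11.15 and matplotlib 3.10.9. Controls and outlying spots had weight 0. A probe was kept if both its colours were well above background on 12 or more of 24 arrays, and at least 4 of 6 regional values were required for a test. Saline levels were normalized between arrays on average intensity (Aquantile). The ratio of signal to background (1.82 to 3.1 in Cy3 and 3.23 to 5.77 in Cy5) and the number of arrays limit the precision. The limma steps were tested on simulated data.

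Probes were named by the file and by RefSeq's rat gene table, used for names only. Named genes were all probes of the 10 members, and probes of the lists where called. Some results that these rules name are not reported here. The members and lists were chosen with earlier results of these data known. The array number (1 to 4) stands for the same dye orientation and dose in every region. Arrays of 1 number deviated together from their groups, with r from 0.516 to 0.742 over 30 pairs of regions at the same dose, so the number pairs arrays by dye orientation. A fit with that number as a block was an alternative, as were the scanner's ratios, the series' table, other filters and priors, scan day, and leaving out regions or array numbers. Values of Camk2a and Shank3 under these settings and the tests between probes of 1 gene were added after seeing the data.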

Additional observations from a re-analysis of the deposited data

Results flagged for a closer look

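Across the 13 probes, 39 groups of 6 regional values (both doses, high dose and low dose) were examined for a region far from the others, and 4 were found. Chance marks about 1 in 20 groups, and the groups share arrays. For Dlg1 over both doses the hypothalamus lay at -0.21, with the other 5 regions between -0.08 and -0.01. For the upstream Camk2a probe the midbrain lay at -0.20 over both doses, against -0.05 to 0.03 elsewhere, and at -0.24 at the high dose, against -0.06 to 0.03. The midbrain is also the region where that probe had its lowest saline level, 7.27. For Homer2 at the high dose the hippocampus lay at -0.11, against 0.02 to 0.08 elsewhere.

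The high minus low difference of the 3′ Camk2a probe, -0.20, was larger than its spread between regions, by the limma test across all probes.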

How the results depend on the processing

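Single probes had 390 values of MK-801 over saline under alternatives (39 results, over both doses or at a single dose). Array numbers left out are not counted, and none of these values passed the threshold. Differences between doses or between regions are not among them. Direction was read at 2 decimals, so a value of 0.00 had none. By that reading it turned in 5: Shank2 A_44_P247745 at the high dose became 0.02 without the midbrain (from -0.06 to 0.02 without 1 region each), and at the low dose 0.08 under both the scanner's ratios and the series' table and 0.01 without the hippocampus (from -0.04 to 0.01). Dlg3 at the low dose became 0.01 without the ventral striatum (from -0.04 to 0.01). The cause was not tested.

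The count of scaffold probes called between doses fell from 1 to 0 under the scanner's ratios, under the series' table, without the ventral striatum, without the hypothalamus, and with single arrays and the replicate block; leaving out each other region kept it at 1, so the range was 0 to 1. In the fit with the replicate block the high minus low difference of Camk2a was -0.20 (adjusted p = 0.05). No array number holds both doses, so the number itself does not pair a high with a low dose array. No scaffold probe was called over both doses or at either dose with the block, as without it, and this fit was not run for the difference between regions. That fit also uses single arrays in place of swap means, and it called 1802 instead of 669 probes of the whole array over both doses, against 352 with the scanner's ratios. Between regions, 1 probe (Shank3) instead of 0 was called with all 24 arrays well above background and 1 with the intensity trend and robust prior. Leaving out an array number removes 1 dye orientation, so the dye effect stays in: 4 to 7 scaffold probes were then called over both doses, 6 to 8 at the high dose and 7 to 8 at the low dose, instead of 0. Of all probes 4242 to 5711, 7583 to 8869 and 8487 to 9691 were called in the same settings, out of 27379 to 27653 tested. The median saline span was 1.77, and it was 2.12 with processed signals and 1.45 with median scaling. The same highest region was found for 12 of 13 probes with processed signals, 9 with median scaling, 9 from the high dose arrays and 11 from the low dose arrays.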
